A study of Mus musculus with 7 samples.

Results

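Wnt ligands are secreted, lipid-modified proteins that bind Frizzled receptors, and with the co-receptors Lrp5 and Lrp6 they keep β-catenin from being degraded, so that it reaches the nucleus and acts with TCF/LEF factors. R-spondins raise the amount of Frizzled at the cell surface, Sfrp proteins bind Wnt ligands outside the cell, and Dkk1, Dkk2 and Dkk4 bind the Lrp co-receptors, while Dkk3 is a divergent relative. In the colon this pathway maintains the stem cells of the crypt, and activating changes in it are a hallmark of colon tumors, including those that azoxymethane (AOM) produces in mice. The genes described here are the protein-coding genes of the deposited table whose symbols begin with Wnt, Fzd, Sfrp, Dkk or Rspo and a number, together with Lrp5, Lrp6, Ror1, Ror2 and Ryk. There are 46 of them among 43346 genes in the table: 19 Wnt ligands, 4 R-spondins, 10 Frizzled receptors, 5 other receptors, 4 Sfrp and 4 Dkk genes.

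Polyadenylated RNA was sequenced from 7 whole colon tumors of mice with colitis-associated cancer (CAC). The 4 tumors labelled Dnmt3a(+/-) in BM came from mice engrafted with bone marrow of Dnmt3a+/fl:Mx1-Cre donors after poly(I:C), so that 1 Dnmt3a allele was deleted (Dnmt3a+/Δ), and the 3 tumors labelled Dnmt3a(+/+) in BM came from mice engrafted with Dnmt3a+/+:Mx1-Cre marrow. Mx1-Cre is driven by an interferon-responsive promoter, and the deletion was carried by transplanted hematopoietic cells, whereas the recipients of both groups were wild-type C57BL6/J mice that had been irradiated. Recipients were 8 weeks old per the labels, whereas the methods give a younger age and describe congenic CD45.1 mice, and all received AOM and repeated cycles of dextran sulfate sodium (DSS). Replicates 1 and 2 of both groups belonged to the experiment BMT18 and the other 3 tumors to BMT8. Each tumor held between 38472738 and 64314999 gene counts.

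Colon epithelium markers were present in every tumor, with summed levels of 17179 to 29425 counts per 1000000 gene counts (CPM) in Dnmt3a+/+ tumors and 9666 to 18931 CPM in Dnmt3a+/Δ tumors. RNA of stratified squamous epithelium, which lines the anal canal and not the colon, was also present. A list of 10 squamous genes, chosen after the values were seen, took 2.49%, 0.492% and 0.498% of counts in Dnmt3a+/+ tumors 1 to 3. In Dnmt3a+/Δ tumors 1 to 4 it took 2.89%, 0.0394%, 0.632% and 0.537%. Krt5, the basal keratin of such epithelium, had 4 counts in Dnmt3a+/Δ tumor 2 and between 44717 and 238968 in the other tumors. Replicate 1 of both groups was therefore high in squamous RNA and Dnmt3a+/Δ tumor 2 was almost without it.

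Of the 46 genes, 35 had enough counts to be tested and 11 did not. Among those tested, 23 had a log2 fold change above 0 and 12 below 0 (Dnmt3a+/Δ over Dnmt3a+/+), with a median of 0.32 against 0.0025 over the 15810 genes tested, where 50.2% were above 0. With edgeR's quasi-likelihood test 0 of the 35 passed an adjusted p of 0.05 with a log2 fold change beyond 1 in size, as did 0.0% of all genes tested. At an unadjusted p under 0.05, 4 were higher with Dnmt3a+/Δ BM (Wnt6, Wnt7a, Dkk2 and Dkk3) and 0 were lower, that is 11.4% and 0 of the 35, against 5.83% of all genes higher and 5.2% lower. DESeq2 called Wnt6, Wnt7a and Dkk3 higher and 0 lower, among 34 of these genes that it gave an adjusted p, where it called 1.48% of all genes higher and 0.342% lower. The 2 groups did not overlap for the same 3 genes, all higher with Dnmt3a+/Δ BM (8.57% of the 35, against 6.12% of all genes higher and 6.32% lower). Wnt7a had fewer than 10 counts in every Dnmt3a+/+ tumor and passed the count filter only through the group where it was high, so it lends no weight to these counts. Without it 3 of 34 were higher at an unadjusted p under 0.05, DESeq2 called 2 and 2 did not overlap. In whole tumors, more or fewer cells of a type and more or less RNA per cell cannot be told apart.

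**Figure D1:**
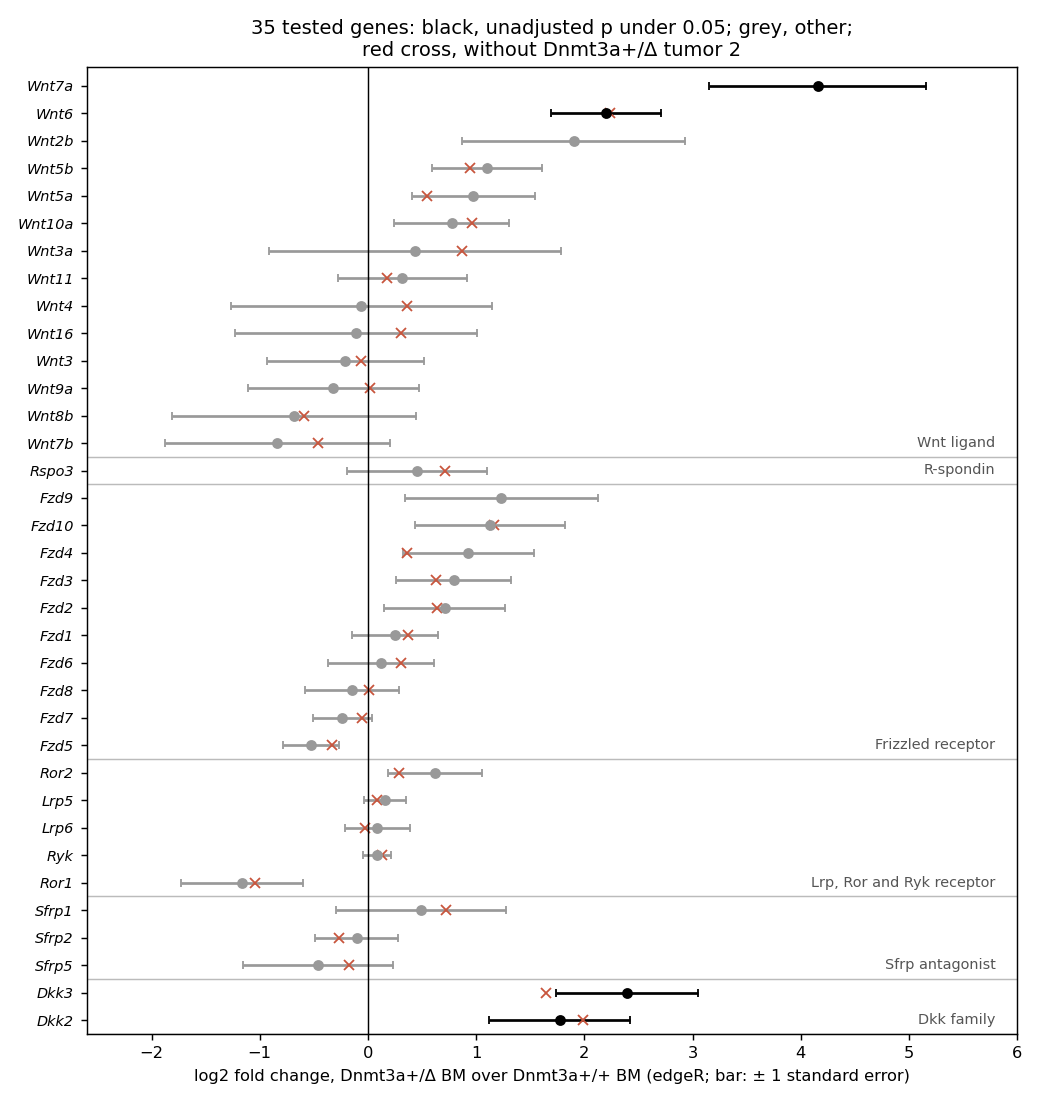
Log2 fold change (Dnmt3a+/Δ BM over Dnmt3a+/+ BM, horizontal axis) of each of the 35 genes tested, with bars of 1 standard error from edgeR, grouped by role. Crosses give the value without Dnmt3a+/Δ tumor 2, for the genes that then passed the count filter. Values run from -1.16 for Ror1 to 4.16 for Wnt7a, and the Dkk pair stands at 1.77 and 2.40.

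Wnt6 and Wnt4 were the most abundant ligands per length, with means over the 7 tumors of 12.7 and 11.8 CPM per kilobase. Wnt4 was ahead when the groups were weighted equally (11.9 against 11.7 for Wnt6) and in 4 of the 7 tumors. Wnt6, on chromosome 1 of GRCm38 from 74771892 to 74785322, encodes a ligand of epithelia and embryonic mesoderm. Its level was 11.8, 4.25 and 11.4 CPM in Dnmt3a+/+ tumors 1 to 3 and 17.8, 41.6, 58.8 and 49.5 CPM in Dnmt3a+/Δ tumors 1 to 4. All 4 Dnmt3a+/Δ tumors lay above all 3 Dnmt3a+/+ tumors, and Dnmt3a+/Δ tumor 1 lay closest to them. The log2 fold change was 2.20 with a standard error of 0.51 (adjusted p = 0.361 from edgeR and 0.00167 from DESeq2). An exact permutation test of the mean log2 CPM over the 35 possible splits gave p = 0.0571 (two-sided), where the smallest p that the design allows is 0.0286. The difference of mean log2 CPM was 1.93 within BMT18 and 2.23 within BMT8, although BMT8 held a single Dnmt3a+/+ tumor. Groups that do not overlap must differ in the same direction within each experiment, so this shared sign adds nothing. Wnt6, like Dkk2 and Dkk3 below, was picked by its unadjusted p in these same tumors, so its exact p is a description.

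Wnt7a was nearly silent with Dnmt3a+/+ BM. This ligand, on chromosome 6 from 91363981 to 91411363, is known from limb, reproductive tract and nervous system. It had 2, 1 and 4 counts in Dnmt3a+/+ tumors 1 to 3 and 7, 51, 82 and 56 counts in Dnmt3a+/Δ tumors 1 to 4. In CPM the levels were 0.0537, 0.0156 and 0.122 CPM against 0.175, 1.04, 1.67 and 1.51 CPM, again without overlap and again with Dnmt3a+/Δ tumor 1 nearest to the other group. The 196 counts of the Dnmt3a+/Δ group and the 7 of the Dnmt3a+/+ group gave a ratio of 21.4 in CPM, with a 95% exact interval of 10.2 to 53.9 that covers counting error only. The fitted log2 fold change was 4.16 with a standard error of 1.00 (adjusted p = 0.361 from edgeR and 0.00296 from DESeq2). It depends on how low counts are treated, and since Wnt7a was tested only because it was high in the Dnmt3a+/Δ group, these values describe the tumors and do not support a difference. Within BMT18 and BMT8 the differences of mean log2 CPM were 2.65 and 3.28, both positive as the lack of overlap requires. Even at its highest, Wnt7a stood at 0.525 CPM per kilobase, against 26.8 for Wnt6 in the same tumor, Dnmt3a+/Δ tumor 3.

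Dkk2 and Dkk3 made up nearly the whole Dkk family in these tumors, since Dkk1 had 0 counts in every tumor and Dkk4 failed the filter. Dkk2, a secreted ligand of Lrp5 and Lrp6 on chromosome 3 from 132085292 to 132180304, was at 19.6, 12.6 and 45.7 CPM in Dnmt3a+/+ tumors 1 to 3. In Dnmt3a+/Δ tumors 1 to 4 it was at 31.4, 51.4, 121 and 150 CPM. Dnmt3a+/+ tumor 3 reached above Dnmt3a+/Δ tumor 1, so the groups overlapped, and the BMT8 tumors were high within each group. The log2 fold change was 1.77 with a standard error of 0.65 (adjusted p = 0.419 from edgeR and 0.0983 from DESeq2), and the exact permutation test gave p = 0.114 (two-sided). Within BMT18 and BMT8 the differences of mean log2 CPM were 1.35 and 1.56.

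Dkk3, on chromosome 7 from 112116017 to 112159057, was at 17.8, 13.0 and 11.3 CPM in Dnmt3a+/+ tumors 1 to 3 and at 22.5, 166, 61.7 and 44.1 CPM in Dnmt3a+/Δ tumors 1 to 4. The groups did not overlap, and Dnmt3a+/Δ tumor 2 stood far above the rest. The log2 fold change was 2.40 with a standard error of 0.66 (adjusted p = 0.361 from edgeR and 0.00705 from DESeq2), and 1.65 without Dnmt3a+/Δ tumor 2. The exact permutation test gave p = 0.0571 (two-sided). The differences within BMT18 and BMT8 were 2.01 and 2.20, both positive as the lack of overlap requires. The Dkk genes summed to 40.0 ± 15.9 CPM (SD, n = 3) in the Dnmt3a+/+ tumors and to 162 ± 73.8 CPM (SD, n = 4) in the Dnmt3a+/Δ tumors. Dkk3 led this sum in Dnmt3a+/+ tumor 2 and Dnmt3a+/Δ tumor 2, and Dkk2 led it in the other 5 tumors.

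**Figure D2:**
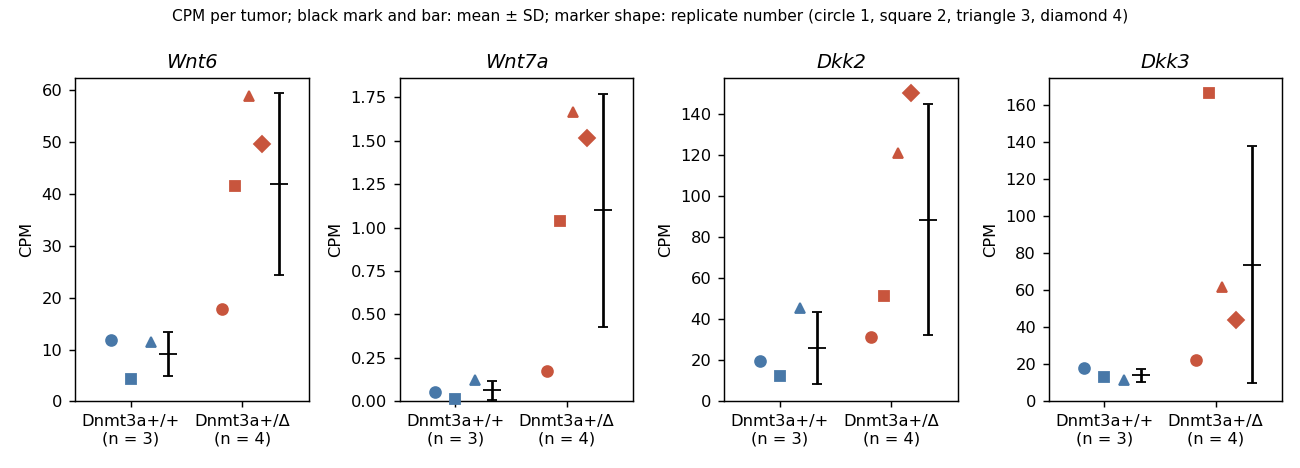
CPM (vertical axes, from 0) of Wnt6, Wnt7a, Dkk2 and Dkk3 in each tumor, with Dnmt3a+/+ BM and Dnmt3a+/Δ BM side by side, the marker shape giving the replicate number and the black mark and bar the group mean ± SD. The groups are apart for Wnt6, Wnt7a and Dkk3, with Dnmt3a+/Δ tumor 1 the lowest of its group in each panel.

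Levels of other cell types differed between the tumors as well. Summed fibroblast markers were at 162 to 314 CPM in Dnmt3a+/+ tumors and 244 to 1051 CPM in Dnmt3a+/Δ tumors, and endothelial markers were at 15.8 to 30.1 CPM and 26.5 to 153 CPM. Of the fibroblast list 9 of 11 genes were tested and all 9 had a log2 fold change above 0, as did all 8 endothelial genes, beside 50.2% of all genes. Both sums were highest in Dnmt3a+/Δ tumor 2, the tumor with the most Dkk3. The fibroblast sums of Dnmt3a+/Δ tumors 1, 3 and 4 were 253, 244 and 369 CPM, so tumors 1 and 3 lay within the Dnmt3a+/+ range. Enteric neuron and glia markers, of which 4 of 8 were tested, summed to 8.14 to 9.79 CPM and 15.1 to 40.0 CPM. Ret alone carried most of that sum, at 4.97 to 8.23 CPM and 12.0 to 35.2 CPM, and the other 7 genes overlapped, at 1.56 to 3.31 CPM and 3.19 to 6.93 CPM. In the colon epithelium list 1 of 12 markers had a log2 fold change above 0. Leukocyte markers were at 257 to 330 CPM and 219 to 310 CPM, with most of the sum from Ly6g, S100a9 and S100a8 in every tumor. The general leukocyte gene Ptprc was at 6.70 to 16.4 CPM and 6.57 to 21.7 CPM. Of the 11 leukocyte genes tested, 6 had a log2 fold change above 0. Telocyte and trophocyte markers were at 305 to 665 CPM and 303 to 482 CPM. Cd81 and F3 carried most of that sum in every tumor, so it says little of the other genes of the list. Of its 8 genes, all tested, 6 had a log2 fold change above 0. Smooth muscle and pericyte markers were at 923, 787 and 24.7 CPM in Dnmt3a+/+ tumors 1 to 3. In Dnmt3a+/Δ tumors 1 to 4 they were at 608, 289, 1185 and 347 CPM. Of the 4 mesothelium markers only Msln was tested, and it carried nearly the whole sum. Wt1 had 0 counts in every tumor, Upk3b at most 6 and Lrrn4 at most 1, so the sum describes Msln and not the cell type. The summed levels were highest in the BMT8 tumors, and so was Dkk2 within each group. They were at 53.3 CPM in Dnmt3a+/+ tumor 3 and 44.3 and 112 CPM in Dnmt3a+/Δ tumors 3 and 4. Elsewhere they reached at most 16.4 CPM. The part of these cell types in the levels of Wnt6, Wnt7a, Dkk2 and Dkk3 was not tested.

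The region around the start of 3 of these 4 genes is shown because TCF/LEF factors act at such regions and the genes had an unadjusted p under 0.05, although the groups overlapped for Dkk2. Each window holds 250 bases before and 50 after the start (RefSeq, GRCm38.p6), written 5′ to 3′ on the strand of the gene, with every CG in capitals to show base composition.
Wnt6, chr1:74771642-74771941, plus strand: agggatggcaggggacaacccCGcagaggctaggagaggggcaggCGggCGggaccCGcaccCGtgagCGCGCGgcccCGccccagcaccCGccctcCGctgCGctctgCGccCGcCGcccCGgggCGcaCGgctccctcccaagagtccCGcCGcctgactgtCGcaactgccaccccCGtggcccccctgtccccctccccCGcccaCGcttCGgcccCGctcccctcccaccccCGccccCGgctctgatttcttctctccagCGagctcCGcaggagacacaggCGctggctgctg
Wnt7a, chr6:91411304-91411603, minus strand: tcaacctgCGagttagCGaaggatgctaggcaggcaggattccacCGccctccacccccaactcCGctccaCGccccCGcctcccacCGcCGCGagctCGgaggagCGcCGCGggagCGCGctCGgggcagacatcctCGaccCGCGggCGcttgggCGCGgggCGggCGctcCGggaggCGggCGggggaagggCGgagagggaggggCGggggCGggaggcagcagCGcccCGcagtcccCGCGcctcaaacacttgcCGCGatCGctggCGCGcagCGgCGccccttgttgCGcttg
Dkk2, chr3:132085042-132085341, plus strand: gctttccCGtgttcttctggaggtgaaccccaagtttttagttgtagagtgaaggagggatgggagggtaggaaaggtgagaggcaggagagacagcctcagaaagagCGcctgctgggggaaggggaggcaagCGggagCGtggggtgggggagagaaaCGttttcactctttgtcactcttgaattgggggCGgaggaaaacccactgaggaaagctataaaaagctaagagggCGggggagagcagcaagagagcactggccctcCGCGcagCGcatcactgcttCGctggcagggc
The windows of Wnt6 and Wnt7a held 31 and 42 CG dinucleotides and a GC content of 76.7% and 76%, against a median of 7 and 52.7% over 32851 windows of the same table. The Dkk2 window held 11, with a GC content of 57.7%. The TCF/LEF core CTTTGA, searched on both strands (TCAAAG), was in 0 of the 3 windows, in 5 of 33 windows of 30 of the 46 genes (15.2%: Ror1, Fzd1, Wnt5b, Wnt11 and Dkk1) and in 16.0% of all windows. No methylation was measured in these tumors.

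The ligands together were at 137 ± 103 CPM (SD, n = 3) in the Dnmt3a+/+ tumors and at 177 ± 82.1 CPM (SD, n = 4) in the Dnmt3a+/Δ tumors. Per length their sum was 36.6 ± 26.4 CPM per kilobase (SD, n = 3) and 55.4 ± 17.5 CPM per kilobase (SD, n = 4), and on both scales the groups overlapped. Of this sum Wnt6 made up 8.12%, 12.2% and 18.9% in Dnmt3a+/+ tumors 1 to 3 and 10.4%, 52.7%, 47.0% and 44.5% in Dnmt3a+/Δ tumors 1 to 4. Wnt4, a ligand of kidney and reproductive tract development, made up 32.3%, 33.3% and 35.1% against 39.9%, 0.405%, 11.7% and 16.8%. Wnt4 was the leading ligand in all 3 Dnmt3a+/+ tumors and in Dnmt3a+/Δ tumor 1, and Wnt6 led in Dnmt3a+/Δ tumors 2 to 4.

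**Figure D3:**
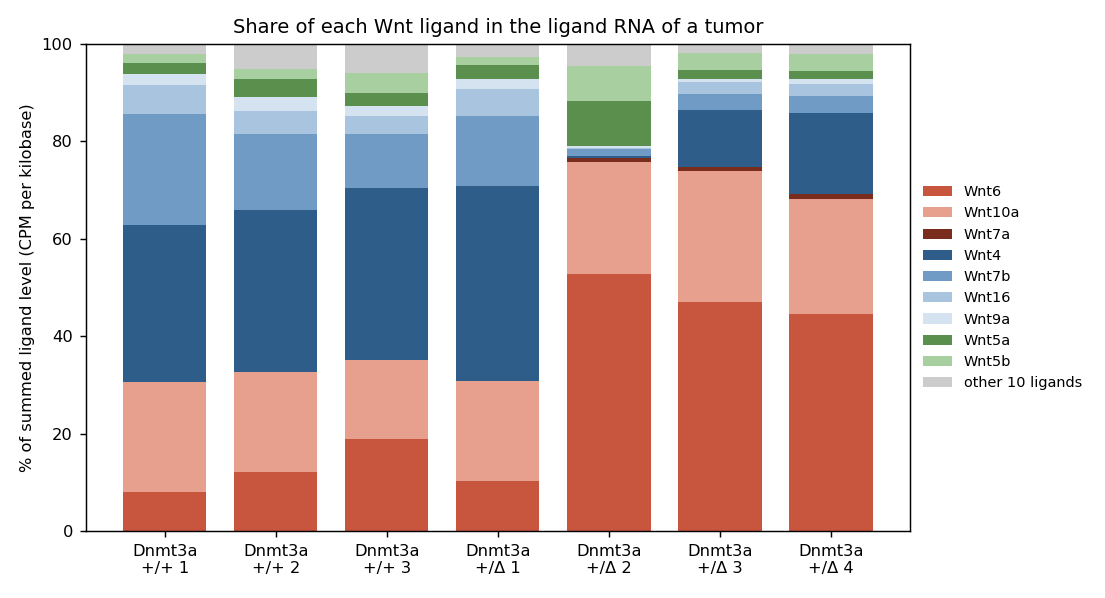
Share of each ligand in the summed ligand level per length (percent, vertical axis) in each of the 7 tumors. Wnt6 takes 44.5% to 52.7% in Dnmt3a+/Δ tumors 2 to 4 and 8.12% to 18.9% in the other 4 tumors, where Wnt4 leads.

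Wnt4 itself, on chromosome 4 from 137277489 to 137299726, was at 89.8, 22.1 and 40.7 CPM in Dnmt3a+/+ tumors 1 to 3 and at 131, 0.611, 27.9 and 35.7 CPM in Dnmt3a+/Δ tumors 1 to 4. It was highest in replicate 1 of both groups and almost absent from Dnmt3a+/Δ tumor 2, as squamous RNA was. Its log2 fold change was -0.06 with a standard error of 1.21. Wnt7b and Wnt16 were high and low in the same 3 tumors, with 74.0, 12.1 and 15.2 CPM against 55.2, 2.65, 9.18 and 8.62 CPM for Wnt7b. Wnt16 was at 16.9, 3.17 and 4.40 CPM against 18.7, 0.244, 5.95 and 5.33 CPM.

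These ligands were picked after their values were seen, for being high and low with squamous RNA, so a narrower range per Krt5 count is a description that the choice itself favours. Over the 6 tumors with more than a few Krt5 counts, Wnt4 had 17.4 to 29.7 counts per 1000 Krt5 counts, a 1.71-fold range, while its CPM varied 5.91-fold and that of Krt5 6.43-fold. The range narrowed from 5.90-fold to 1.56-fold for Wnt16, from 8.58-fold to 2.47-fold for Wnt7b, from 3.94-fold to 1.80-fold for Wnt9a and from 12.8-fold to 2.95-fold for Wnt3a. Dnmt3a+/Δ tumor 2 is left out of these ranges, and there Wnt4 still had 30 counts and Wnt7b 130 counts beside the 4 of Krt5. For Wnt6 the range widened instead, from 13.8-fold in CPM to 21.1-fold per Krt5 count. Wnt6 had 2.29, 4.58 and 8.36 counts per 1000 Krt5 counts in the Dnmt3a+/+ tumors, 2.98 in Dnmt3a+/Δ tumor 1 and 48.2 and 33.3 in tumors 3 and 4. Wnt10a, which lies 6194 bases from Wnt6 on the same strand of chromosome 1, had 7.13, 8.65 and 8.07 in the Dnmt3a+/+ tumors, 6.60 in Dnmt3a+/Δ tumor 1 and 30.98 and 19.9 in tumors 3 and 4.

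**Figure D4:**
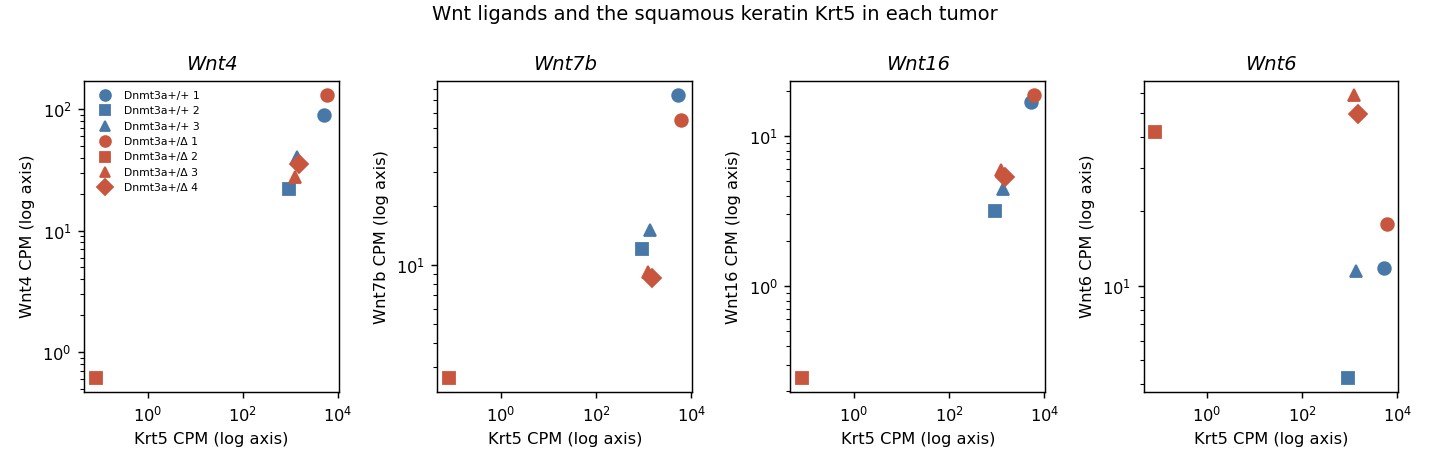
CPM of ligands (vertical axes, log scale) against CPM of Krt5 (horizontal axis, log scale) in each tumor, coloured by group, for Wnt4, Wnt7b, Wnt16 and Wnt6. Wnt4 lies near a constant ratio to Krt5 in the 6 tumors with Krt5, whereas Wnt6 lies higher for its Krt5 in Dnmt3a+/Δ tumors 3 and 4, and Dnmt3a+/Δ tumor 2 stands at the left with 0.0815 CPM of Krt5.

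Wnt10a, a ligand of skin appendages and teeth, was at 36.8, 8.02 and 11.04 CPM in Dnmt3a+/+ tumors and 39.4, 20.4, 37.7 and 29.7 CPM in Dnmt3a+/Δ tumors. The groups overlapped through Dnmt3a+/+ tumor 1, and the log2 fold change was 0.77 with a standard error of 0.53. Without replicate 1 of both groups, a choice made after the values were seen, 8 genes were higher at an unadjusted p under 0.05 by edgeR, where 5.68% of all genes were higher and 3.17% lower. The log2 fold changes were then 2.72 for Wnt6, 4.49 for Wnt7a, 1.92 for Dkk2, 2.94 for Dkk3, 1.65 for Wnt10a, 2.22 for Fzd10, 1.51 for Fzd2 and 1.63 for Wnt5b. With the squamous list as a covariate the log2 fold changes were 2.13 for Wnt6, 3.95 for Wnt7a, 1.75 for Dkk2 and 1.55 for Dkk3. No gene of these passed an adjusted p of 0.05 by edgeR in either setting.

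The ligands Wnt5a and Wnt5b, which act mostly without β-catenin, had log2 fold changes of 0.97 and 1.10 with standard errors of 0.57 and 0.51. Wnt5a was at 11.6, 4.65 and 5.72 CPM against 17.5, 25.9, 7.64 and 6.60 CPM, and Wnt5b at 3.30, 0.873 and 2.94 CPM against 3.27, 6.91, 5.42 and 4.68 CPM. Both pairs of groups overlapped, and Wnt5b shares its place with Fbxl14 on the opposite strand, so that reads may be split between the 2 genes. Wnt2b, a stromal ligand, reached 2.22 CPM in Dnmt3a+/Δ tumor 2 and at most 0.399 CPM in any other tumor. Wnt3 had 4.01 CPM in Dnmt3a+/+ tumor 3 and 0.510 to 2.20 CPM elsewhere. Wnt1, Wnt2, Wnt8a, Wnt9b and Wnt10b failed the filter, with mean levels of at most 0.172 CPM in either group. Wnt9b had 0, 1 and 0 counts in Dnmt3a+/+ tumors and 1, 3, 10 and 1 in Dnmt3a+/Δ tumors.

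R-spondin RNA was scarce. The 4 genes summed to 0.661 ± 0.395 CPM (SD, n = 3) in the Dnmt3a+/+ tumors and to 0.931 ± 0.266 CPM (SD, n = 4) in the Dnmt3a+/Δ tumors, and Rspo3 alone could be tested. Rspo3, the main R-spondin of the crypt niche, was at 0.860, 0.484 and 0.153 CPM against 0.599, 0.346, 1.08 and 0.730 CPM, with a log2 fold change of 0.46 and a standard error of 0.65. Rspo1, Rspo2 and Rspo4 had mean levels of at most 0.139 CPM in either group, where 3 counts correspond to 0.0468 to 0.0918 CPM in these libraries, so these 3 genes were not tested. The highest count in any tumor was 12 for Rspo4, 6 for Rspo1 and 2 for Rspo2.

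All 10 Frizzled genes were tested, 7 with a log2 fold change above 0, and they summed to 190 ± 48.4 CPM (SD, n = 3) in the Dnmt3a+/+ tumors and to 188 ± 50.2 CPM (SD, n = 4) in the Dnmt3a+/Δ tumors. Fzd1 was the most abundant of them per length. It was at 83.1, 42.4 and 27.9 CPM against 90.6, 49.2, 57.6 and 46.2 CPM, with overlapping groups. Fzd5, a receptor of intestinal epithelium, had the lowest value of the family, a log2 fold change of -0.53 with a standard error of 0.26, from 61.8, 77.1 and 63.3 CPM against 46.1, 30.2, 68.0 and 42.9 CPM. Fzd10 had a log2 fold change of 1.13 with a standard error of 0.69, and was at 11.2, 2.98 and 1.28 CPM against 15.3, 11.1, 12.2 and 6.38 CPM. Dnmt3a+/+ tumor 1, one of the tumors rich in squamous RNA, was the overlapping sample for Fzd10.

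Ryk, a receptor with an inactive kinase domain, was the most abundant receptor per length and had the smallest standard error of the 35 genes. It was at 81.6, 78.0 and 84.2 CPM in Dnmt3a+/+ tumors and 88.6, 81.2, 77.7 and 96.5 CPM in Dnmt3a+/Δ tumors, a log2 fold change of 0.08 with a standard error of 0.13. The co-receptors Lrp5 and Lrp6 had log2 fold changes of 0.16 and 0.09 with standard errors of 0.20 and 0.30. Ror1, a receptor for Wnt5a, was at 4.03, 6.64 and 2.26 CPM against 1.92, 1.61, 3.41 and 0.757 CPM. The lowest log2 fold change of the 35 was that of Ror1, at -1.16 with a standard error of 0.57, and its groups overlapped. Its adjusted p was 0.492 by edgeR and 0.373 by DESeq2. Its relative Ror2 had a log2 fold change of 0.62 with a standard error of 0.43.

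The Sfrp genes summed to 4.58 ± 2.45 CPM (SD, n = 3) and 5.77 ± 4.30 CPM (SD, n = 4), against the Dkk sums of 40.0 and 162 CPM. Sfrp1 led per length over all tumors, at 6.13, 1.67 and 1.84 CPM against 11.1, 2.30, 1.75 and 2.95 CPM. It was highest in replicate 1 of both groups, like the squamous RNA. Sfrp2 and Sfrp5 had log2 fold changes of -0.10 and -0.46 with standard errors of 0.39 and 0.70, and Sfrp4 failed the filter.

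**Figure D5:**
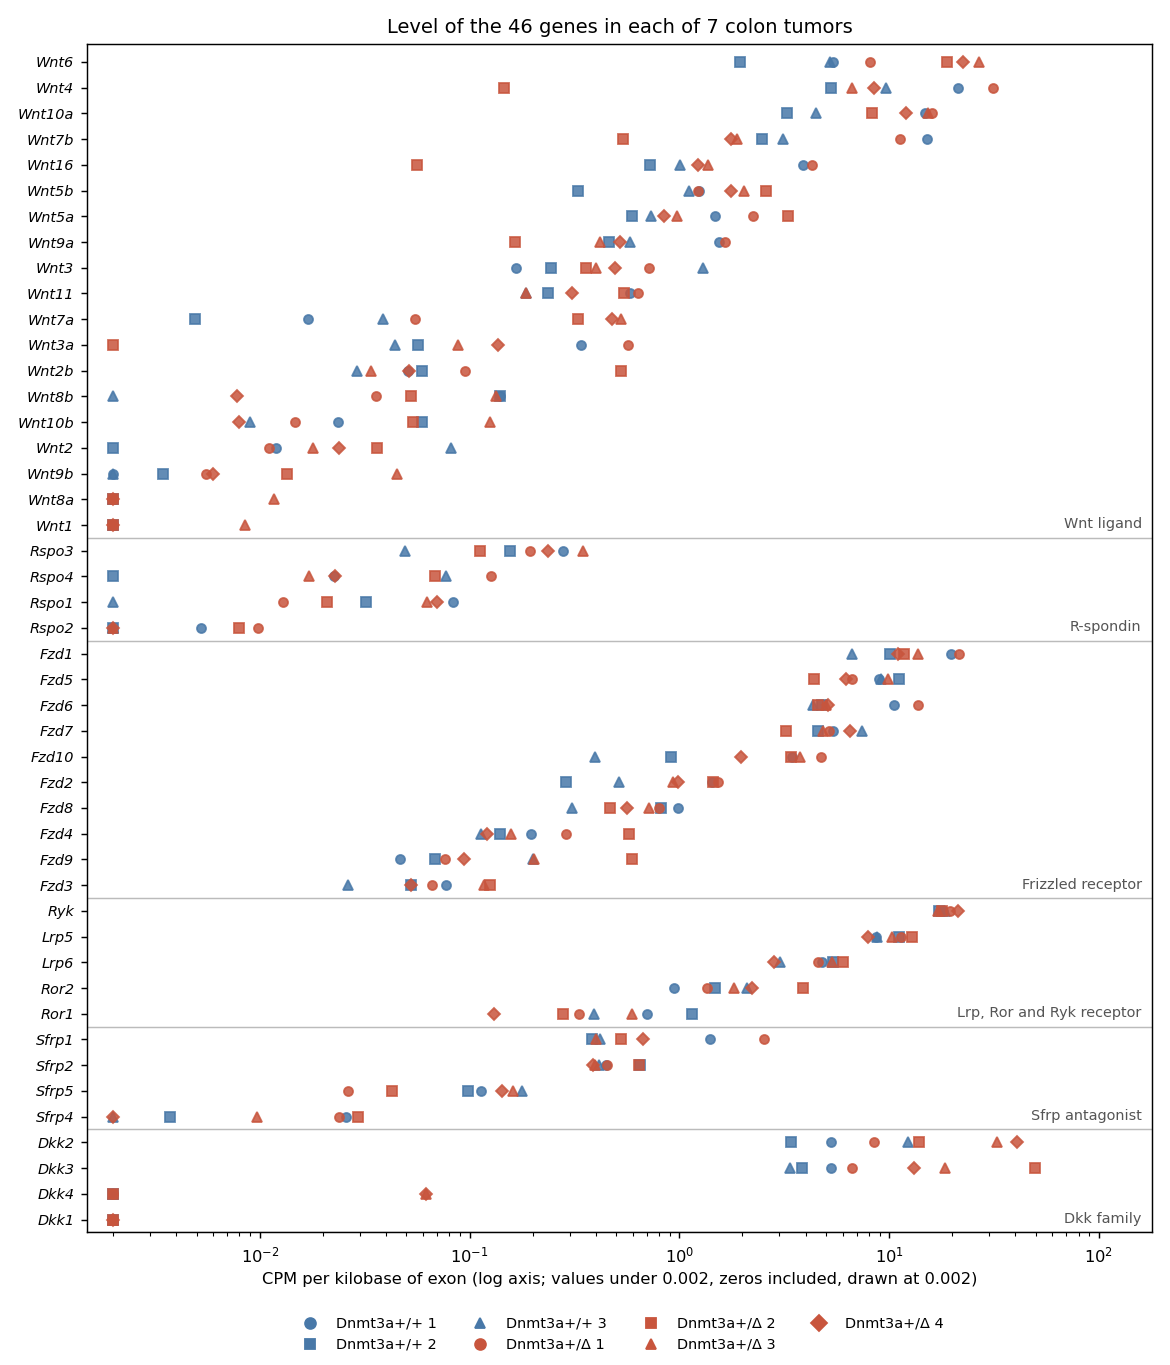
Level of each of the 46 genes per length (CPM per kilobase, log scale) in every tumor, coloured by group and ordered by role, with zeros drawn at the left edge. Among the 35 genes tested the points overlap between groups except for Wnt6, Wnt7a and Dkk3, and Dkk1 is at 0 in all 7 tumors.

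Which tumor held the extreme value was uneven. Dnmt3a+/Δ tumor 1 held the highest CPM for 11 of the 35 genes (31.4%, against 12.2% of all genes tested) and Dnmt3a+/Δ tumor 2 for 10 (28.6%, against 24.7%). Dnmt3a+/+ tumor 3 held the lowest for 11 (31.4%, against 19.7%). Within both experiments the difference of mean log2 CPM was above 0 for 19 of the 35 genes and below 0 for 8, and the signs differed for the other 8. Dnmt3a+/+ tumor 3, the lowest for 11 genes, was the only Dnmt3a+/+ tumor of BMT8, so every difference within BMT8 rests on it. The share of all genes with these signs is not given here. In BMT18 alone, with 2 tumors a group, 32 of the genes could be tested. Dkk2 (log2 fold change 1.38) was then higher at an unadjusted p under 0.05 by edgeR, and Ror1 (-1.58), Wnt8b (-1.61) and Fzd5 (-0.86) were lower, against 3.58% of all genes higher and 5.88% lower.

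The rest of the pathway was followed in 5 lists of 90 genes, of which 82 were tested, 60 with a log2 fold change above 0 and a median of 0.33. With edgeR 0 passed the adjusted p, 22 (26.8%) were higher and 2 (2.44%) lower at an unadjusted p under 0.05, and DESeq2 called 9 higher and 0 lower. Over all genes tested 50.2% were above 0, 5.83% were higher and 5.2% lower at that threshold, and DESeq2 called 1.48% higher and 0.342% lower. The study had named some of these genes for the same tumors, so their direction is not independent evidence. Of 13 target genes of β-catenin, 12 had a log2 fold change above 0 and 7 were higher at an unadjusted p under 0.05, among them Tnfrsf19 (2.17), Prox1 (2.02), Sp5 (1.97), Nkd1 (1.92) and Axin2 (1.14), the last 2 being feedback inhibitors. That is 92.3% of the list above 0 and 53.8% higher, beside the 50.2% and 5.83% of all genes. Of 14 nuclear factors, 9 were above 0 and 5 were higher and 1 lower at that threshold, with Lef1 at 2.33 and Tcf7 at 0.94.

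Secreted and membrane modulators outside the families above numbered 27, of which 21 were tested, 16 above 0, with 7 higher and 1 lower at an unadjusted p under 0.05. These are 76.2%, 33.3% and 4.76% of those tested, beside 50.2%, 5.83% and 5.2% of all genes. Wif1, which binds Wnt ligands, was at 86.3, 74.8 and 128 CPM in Dnmt3a+/+ tumors and 162, 413, 399 and 333 CPM in Dnmt3a+/Δ tumors, a log2 fold change of 1.76 (adjusted p = 0.361 from edgeR). Notum, which removes the lipid of Wnt ligands, was at 54.2, 38.2 and 64.6 CPM against 66.0, 200, 189 and 222 CPM, a log2 fold change of 1.69 (adjusted p = 0.361 from edgeR). For both genes the groups did not overlap, and Dnmt3a+/Δ tumor 1 lay nearest to the Dnmt3a+/+ tumors, as it did for Wnt6, Wnt7a and Dkk3. Of 21 cytoplasmic components 20 were tested, with 12 above 0, 1 higher at an unadjusted p under 0.05 and a median of 0.07. Of 15 planar polarity genes 14 were tested, with 11 above 0 and 2 higher, led by Vangl2 at 1.40.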

How the data were processed

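RNA of 4 Dnmt3a+/Δ and 3 Dnmt3a+/+ colon tumors was compared. The authors aligned trimmed reads with STAR 2.7.3a to mouse build 38 and deposited RSEM 1.2.31 expected counts per gene, which are whole numbers in the table. The annotation release and the strand setting of the counting are not given in the sources used here, so a gene and its antisense partner may share reads. Rows without a gene symbol held 0.104% of counts. The series text gives 4 and 3 animals, so each tumor was taken as 1 mouse. The labels of all Dnmt3a+/Δ tumors except tumor 1 ended in an extra number, which no Dnmt3a+/+ label had. The meaning of this number was not established here. Dnmt3a+/Δ tumor 1, without it, was also nearest to the Dnmt3a+/+ tumors for Wnt6, Wnt7a and Dkk3. The part of this label difference in the group differences was not tested.

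Genes passing edgeR's filterByExpr were fitted with TMM scaling (edgeR 4.0.16, R 4.3.3, glmQLFit and glmQLFTest, group as the single term), with Benjamini-Hochberg adjustment over all 15810 genes tested. Calls needed an adjusted p below 0.05 and a log2 fold change beyond 1 in size, and the standard error is the log2 fold change divided by the square root of F. DESeq2 1.42.0, which the authors used, was an alternative. Log2 CPM used a prior count of 2. Levels per length are CPM per kilobase of merged exons (GENCODE M21, GRCm38). The code was tested on simulated data. With the dispersion estimated for each gene from these tumors, DESeq2 made many more false calls than edgeR and also recovered more of the true changes. With a low dispersion set for all genes, both made few false calls, DESeq2 fewer than edgeR.

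The genes and lists were chosen with earlier results of these data known. Values in every tumor are given for genes with an unadjusted p under 0.05, genes called by DESeq2, genes whose groups did not overlap, the most abundant gene per length of each class, and Wnt7a. Wnt2b, Wnt3, Wnt4, Wnt5a, Wnt5b, Wnt7b, Wnt10a, Wnt16, Fzd5, Fzd10 and Ror1 were added after their values were seen. Of the pathway lists, genes with the lowest p were named. Replicate numbers did not pair the tumors. Alternatives were DESeq2, other scalings and filters, experiment as a covariate, a replicate block, BMT18 alone and leaving out each tumor. Protein sequences were not used here.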

Additional observations from a re-analysis of the deposited data

Results flagged for a closer look

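Fzd6, a Frizzled receptor gene, had a log2 CPM of 6.06 (66.5 CPM) in Dnmt3a+/Δ tumor 1, far from the other 3 tumors of its group, with a gap of 0.893 of the group's range. It was the only such value among the 35 genes tested, where 1.75 are expected by chance. In the Dnmt3a+/+ group Fzd6 was also highest in tumor 1, at 50.8 CPM against 23.1 and 20.8 CPM in tumors 2 and 3. Dnmt3a+/Δ tumor 1 was also the tumor with the most squamous RNA, and Dnmt3a+/+ tumor 1 had the most in its group. The part of squamous RNA in the Fzd6 level was not tested.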

How the results depend on the processing

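Wnt6, Wnt7a, Dkk2 and Dkk3 stayed higher with Dnmt3a+/Δ BM in every setting in which they were tested, with log2 fold changes of 1.85 to 2.72, 3.61 to 4.99, 1.37 to 2.45 and 1.55 to 2.94. These 4 genes were picked by their unadjusted p in the same tumors, so their steady sign is a description. Wnt7a passed the count filter only through the group where it was high, so its sign and its part in the counts below lend no weight. Of the 35 genes 17 kept their sign in all 17 settings, as did 5 (Fzd9, Sfrp5, Wnt2b, Wnt7a and Wnt8b) in the 12 or more in which they were tested. DESeq2 called 3 genes higher where edgeR called 0, and when each tumor was left out DESeq2 called Wnt6 in all 7 fits and Wnt7a and Dkk3 in 6, the exception being Dnmt3a+/+ tumor 2, with Dkk2, Fzd2, Fzd10 or Wnt10a called higher and Wnt7b lower in some fits. The share of all genes called in these DESeq2 fits is not given here. At an unadjusted p under 0.05 the 4 higher genes became 1 in BMT18 alone and 8 without replicate 1 of both groups (2 to 6 leaving out a tumor, 2 without Dnmt3a+/Δ tumor 3 or 4). The 0 lower genes became 1 with DESeq2 (Ror1) and 3 in BMT18 alone (0 to 2 leaving out a tumor). Of all genes tested 3.58% were higher and 5.88% lower in BMT18 alone, and 5.68% and 3.17% without replicate 1 of both groups. Without Dnmt3a+/+ tumor 1, which gave the 6 higher genes, 695 of 16221 genes were higher. Without Dnmt3a+/Δ tumor 3 or 4 it was 706 of 15563 and 856 of 15632. Genes without overlap numbered 5 with library sizes alone, 16 in BMT18 alone and 12 without replicate 1 of both groups (3 to 10 leaving out a tumor, 10 without Dnmt3a+/+ tumor 1). Of all genes tested 13.1%, 49.7%, 28% and 19.3% did not overlap in these 4 settings, against 14.3%, 45.7%, 34.3% and 28.6% of the 35. The median log2 fold change ran from 0.074 (without Dnmt3a+/Δ tumor 1) to 0.88 (without Dnmt3a+/+ tumor 1), and the other pathway genes at an unadjusted p under 0.05 numbered 15 to 24.

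The other 13 genes changed sign in at least 1 setting, among them Wnt7b from -0.84, Sfrp1 from 0.49, Rspo3 from 0.46 and Wnt3a from 0.43. Library sizes alone, under which the median over all genes was 0.21, gave 0.026 for Fzd8, 0.11 for Sfrp2, 0.038 for Wnt16, 0.054 for Wnt3, 0.087 for Wnt4 and 0.17 for the Frizzled sum, and it moved the Lrp, Ror and Ryk sum from 0.11 to 0.33 with no change of sign. Experiment as a covariate gave 0.062 for Fzd8, 0.088 for Wnt16 and 0.087 for Wnt3. BMT18 alone gave -0.49 for Rspo3, 0.0054 for Sfrp2, 1.38 for Wnt3 and 0.22 for Wnt4. Without replicate 1 of both groups Fzd8 was at 0.058 and Wnt16 at 0.042, and with squamous RNA as a covariate, also chosen after the values were seen, Fzd8 was at 0.024, Wnt16 at 0.32 and Wnt9a at 0.025. Leaving out a tumor gave -0.045 to 0.79 for Fzd1, -0.40 to 0.64 for Fzd6, -0.50 to 0.17 for Fzd8, -0.12 to 0.27 for Lrp6, -0.46 to 1.36 for Sfrp1, -0.27 to 0.12 for Sfrp2, -1.09 to 0.99 for Wnt16 and -0.65 to 1.25 for Wnt3. It gave -0.98 to 1.93 for Wnt3a, -1.25 to 0.63 for Wnt4, -2.31 to 0.47 for Wnt7b, -1.22 to 0.40 for Wnt9a, -0.21 to 0.20 for the Frizzled sum, -0.34 to 0.86 for the Sfrp sum and -0.00080 to 1.16 for the ligand sum. The causes were not tested.

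The replicate numbers did not pair the tumors, since deviations of same-numbered tumors correlated at 0.568, 0.071 and -0.038. A replicate block gave 1 lower gene (Wnt7b) at an unadjusted p under 0.05, and 0.016 for Fzd8, 0.32 for Wnt3 and -0.15 for Wnt3a. Wnt7a fell below the count filter with the block, in BMT18 alone and without Dnmt3a+/Δ tumor 2, 3 or 4, so edgeR gave no value there, while DESeq2 tested it without each of those 3 tumors. With 3 and 4 tumors a group, no exact p could fall below 0.0286.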
